A study of Mus musculus with 4 samples.

Results

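Osteoclast-like cells of the TNF+ synovium were taken as the barcodes with at least 5 UMIs of Acp5, at least 5 UMIs of Ctsk and at most 5 UMIs of Col1a1 and Col1a2 together. Barcodes also needed at least 500 UMIs and at most 20% mitochondrial UMIs, with no upper limit on detected genes. This gave 83 cells among 3498 kept barcodes of the library (2.37%, exact binomial 95% interval 1.89 to 2.93). A UMI, or unique molecular identifier, marks 1 captured transcript. The 2 genes of the rule chose the cells, so their levels are a description and not a finding.

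The study profiled lung and synovium by droplet-based 3′ single-cell RNA sequencing in a mouse model of erosive arthritis with pulmonary vascular disease. TNF+ mice were TNF-Tg animals of a line that carries the human TNF gene, and TNF- mice were their wildtype littermates. All were C57BL/6 females aged 4 months, and each library pooled mice of 1 genotype, 5 to 10 of them for synovium and 3 to 5 for lung. Each of the 4 groups therefore held 1 library, no test between groups was possible, and all intervals below are at 95% and cover counting error only. The transgene itself was not measured, and how far tissue digestion, sorting of viable cells and droplet capture kept large multinucleated cells was not tested.

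Osteoclasts are multinucleated cells of the monocyte lineage that resorb bone. They form when CSF1 and RANKL act on precursors through the receptors Csf1r and RANK, which raises the transcription factor NFATc1 and, with it, genes for fusion, attachment, acid secretion and matrix digestion. In inflammatory arthritis they appear at the border of synovium and bone, where they carry out erosion.

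Starts of RefSeq transcripts were found for 4 of the 8 osteoclast genes looked up, and 3 stretches of 250 bases upstream are shown because Acp5 and Ctsk chose the cells and Oscar was absent from the other myeloid cells. Capitals mark matches on either strand to GGAAA, the core bound by NFAT factors, or to CATGTG and CACGTG, E-boxes of the MITF and TFE factors. The AP-1 sites TGACTCA and TGAGTCA were also searched, and no motif overlapped another.
Acp5, chr9:22130599-22130848, minus strand: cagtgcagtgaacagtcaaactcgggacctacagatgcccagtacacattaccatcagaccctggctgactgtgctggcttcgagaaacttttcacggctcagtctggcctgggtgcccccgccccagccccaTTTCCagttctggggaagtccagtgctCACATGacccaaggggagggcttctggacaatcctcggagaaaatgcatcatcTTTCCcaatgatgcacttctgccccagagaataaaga
Ctsk, chr3:95498960-95499209, plus strand: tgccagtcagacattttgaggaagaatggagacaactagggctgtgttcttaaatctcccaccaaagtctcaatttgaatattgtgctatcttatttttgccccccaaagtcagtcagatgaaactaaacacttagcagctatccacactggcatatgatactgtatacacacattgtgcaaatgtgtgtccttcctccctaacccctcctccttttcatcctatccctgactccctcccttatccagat
Oscar, chr7:3616158-3616407, minus strand: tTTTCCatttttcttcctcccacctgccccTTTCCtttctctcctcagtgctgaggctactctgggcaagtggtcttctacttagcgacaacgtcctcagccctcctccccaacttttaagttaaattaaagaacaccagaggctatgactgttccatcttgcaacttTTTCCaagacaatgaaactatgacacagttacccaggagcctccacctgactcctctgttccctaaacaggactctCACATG
Sequences are from RefSeq on build GRCm38.p6, 5′ to 3′ toward the start. GGAAA matched 2 times in the Acp5 stretch, 3 times in the Oscar stretch and 0 times in the Ctsk stretch. An E-box matched 1 time each in the Acp5 and the Oscar stretch. The 2 further Acp5 starts held 1 GGAAA match each. These matches are common letters: 55.6% of all 32841 such stretches held GGAAA, 17.6% an E-box and 4.46% an AP-1 site. They are a description and not binding sites.

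In the TNF- synovium 0 of 6638 kept barcodes passed the same rule, for which a limit of 3 counts allows up to 0.0452% (exact binomial upper bound 0.0556%). The TNF- library held 560 other myeloid barcodes, defined in each library by at least 3 UMIs of Csf1r, Cd68 and Adgre1 together and at most 5 UMIs of the collagens. Among these the highest Acp5 count was 7 UMIs and the highest Ctsk count 3. In the TNF+ synovium 1025 other myeloid barcodes served as the contrast, and their highest counts were 63 UMIs of Acp5 and 137 of Ctsk. The TNF- synovium was not empty of single osteoclast transcripts: its kept barcodes held 88 UMIs of Ocstamp and 26 of Oscar, against 470 and 170 in the TNF+ synovium. All kept barcodes held 90135854 UMIs in the TNF- and 47337256 in the TNF+ synovium, so these raw counts understate the gap per UMI. With 1 library per genotype, a difference of genotype and a difference of library cannot be told apart.

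**Figure D1:**
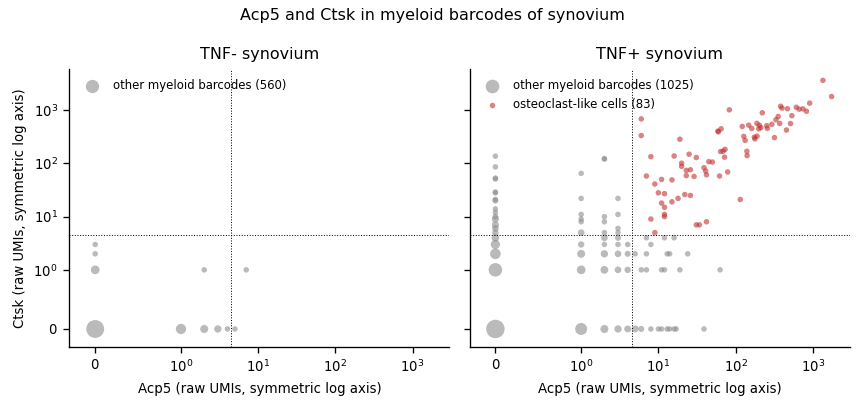
Raw Acp5 UMIs (x axis) against raw Ctsk UMIs (y axis), both on symmetric log axes, for myeloid barcodes of the TNF- (left) and TNF+ (right) synovium. Dotted lines mark the limit of 5 UMIs and dot size grows with the number of barcodes at a point; all 83 red cells lie in the TNF+ library.

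Members had 6 to 1753 UMIs of Acp5 (median 65.0) and 5 to 3642 of Ctsk (median 170.0). Just inside the limits were a cell with 9 UMIs of Acp5 and 5 of Ctsk and a cell with 6 UMIs of Acp5 and 334 of Ctsk. Just outside were 5 barcodes with 3 UMIs of Acp5 and at least 5 of Ctsk, and 4 barcodes with at least 5 UMIs of Acp5 and 3 or 4 of Ctsk. The collagen limit kept out 26 barcodes that passed the other limits, and the mitochondrial limit kept out 2.

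The cells were deep. They held a median of 38457 UMIs (4713 to 125222) and 5330.0 detected genes, against a median of 15023 UMIs and 3235 genes in the other myeloid barcodes. The study limited cells to 5000 genes, and 55 of the 83 cells (66.3%) exceeded that limit, against 3.41% of the other myeloid barcodes. Under the limits of the study 28 cells remained. Because of this gap, levels are given per UMI, as CPM, the UMIs of a gene per 1000000 UMIs summed over a group of cells, and ratios as log2 of members over other myeloid barcodes.

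Of the 7 marker genes of osteoclasts, Acp5 and Ctsk chose the cells and were higher by the rule. The 5 that the rule did not use were all higher in these cells than in the other myeloid barcodes. Among these 5, Mmp9, a secreted gelatinase, had the highest ratio. It was at 2910.4 CPM against 6.81, a log2 ratio of 8.74 (8.47 to 9.02), and was found in 51 of 83 cells. Its level per cell ran from 0 through a median of 130.0 to 20157 CPM, so 32 cells had none while others had it among their most abundant transcripts. Atp6v0d2, the d2 subunit of the proton pump that also takes part in cell fusion, was at 714 CPM against 11.1 (log2 ratio 6.01, 5.79 to 6.24) and was found in 69 cells. Its level per cell had a median of 578 and a highest value of 1779 CPM.

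Itgb3, the integrin chain that anchors the sealing zone, was at 69.9 CPM against 1.55 (log2 ratio 5.50, 4.90 to 6.15). It was found in 33 of 83 cells. Ocstamp, a membrane protein needed for fusion, was at 112 CPM against 3.47 (log2 ratio 5.01, 4.60 to 5.44) in 50 cells. Nfatc1, the master transcription factor, was at 548 CPM against 50.4 (log2 ratio 3.44, 3.32 to 3.56) in 76 cells. At least 3 of these 5 markers were found in 59 of 83 cells (71.1%) but in 6 of 1025 other myeloid barcodes (0.585%), and all 5 were found in 26 cells and in 0 other barcodes. By raw detection the label thus held for most cells by markers the rule did not use, but 4 of the 83 cells had none of the 5. These counts are not matched for depth. Of the 51 other myeloid barcodes at or above the lower quartile of member depth, 60.8% had Nfatc1 and 27.5% Atp6v0d2. Mmp9 was found in 7.84% of them, Ocstamp in 3.92% and Itgb3 in 1.96%.

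The markers lie on several chromosomes of GRCm38, from the GENCODE annotation. Acp5 (ENSMUSG00000001348) is at chr9:22126727-22135711 and Ctsk (ENSMUSG00000028111) at chr3:95499256-95509362. Atp6v0d2 is at chr4:19876841-19922605, Itgb3 at chr11:104608000-104670476, Ocstamp at chr2:165393760-165400405 and Mmp9 at chr2:164940780-164955850.

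To set shares of cells side by side, each cell was thinned to 2000 UMIs, which left out 0 members and 3 other myeloid barcodes. Mmp9 was then found in 42.2% of members (unthinned 61.4%), 1.37% of other myeloid barcodes (unthinned 3.51%) and 0 of 67 T cell barcodes of the same library, for which a limit of 3 counts allows up to 4.48% of barcodes with a UMI. Atp6v0d2 was found in 57.8%, 0.783% and 0% in the same order. Slc9b2, a sodium-proton exchanger, was found in 48.2%, 0.685% and 0%. Itgb3 was found in 9.64%, 0.391% and 10.4%, so its share in members was above that in other myeloid barcodes but not above that in T cell barcodes, and no expression is read from this share.

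Most osteoclast transcripts of the library sat in these cells. They held 7.16% of the UMIs of kept barcodes but 89.5% of Atp6v0d2, 88.8% of Mmp9, 88.5% of Rufy4 and 80.6% of Ocstamp UMIs. Their share was lower for genes that other synovial cells use, with 36.9% of Itgb3 and 33.4% of Nfatc1 UMIs.

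Across all genes with at least 20 UMIs over both groups, 2239 of 12166 were 2-fold or more higher in the members (18.4%) and 2250 were 2-fold or more lower (18.5%), with a median log2 ratio of 0.09. Of 112 measured genes of the osteoclast lists, covering RANK signalling, transcription factors, fusion, attachment, acid transport and secreted factors, 28 were higher (25%) and 24 lower (21.4%), with a median of -0.15. Pooled, these lists were thus close to the background, but some lists departed from it in opposite directions. Of 15 measured genes of acid transport and vesicle traffic 7 were higher (46.7%) and 2 lower (13.3%). Of 17 measured secreted factors 8 were lower (47.1%) and 2 higher (11.8%), with a median log2 ratio of -0.59.

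RANK signalling starts with the receptor Tnfrsf11a (RANK), which was at 130.0 CPM against 38.5 (log2 ratio 1.76, 1.58 to 1.93). Csf1r, the CSF1 receptor, was at 509 CPM against 489 (log2 ratio 0.06, -0.02 to 0.13), although it helped choose the contrast. Of the costimulatory receptors, Oscar had 136 UMIs in 16 members and 0 in the 1025 other myeloid barcodes, a log2 ratio of at least 7.75 against a floor of 3 UMIs over that group. Siglec15 had 21 UMIs in 10 members and 0 in the others (log2 ratio of at least 5.06). Trem2, which acts through the adaptor Tyrobp, was at 284 CPM against 320.1 (log2 ratio -0.17). Calcr, the calcitonin receptor and a marker of mature osteoclasts, had 7 UMIs in 2 members and 0 in the others. Of 18 measured genes of this list 3 were higher (16.7%) and 5 lower (27.8%), against 18.4% and 18.5% of all genes.

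Among transcription factors 6 of 25 were higher (24%) and 4 lower (16%), near the 18.4% and 18.5% of all genes. Ppargc1b, a coactivator that drives mitochondrial biogenesis in osteoclasts, was at 75.5 CPM against 4.27 (log2 ratio 4.14, 3.76 to 4.55). Jdp2, an AP-1 family member, was at 1008 CPM against 142 (log2 ratio 2.83, 2.75 to 2.90) and was found in 80 of 83 cells. Prdm1 (Blimp1), which represses inhibitors of the programme, had a log2 ratio of 1.30 and Fosl2 of 1.25. Most inhibitors themselves were lower: of 11 measured repressors 8 were lower (72.7%, against 18.5% of all genes) and 0 higher. Irf8 had a log2 ratio of -2.13 and Bcl6 of -2.02. The Bcl6 ratio lost the 2-fold limit, at -0.78, against the 51 other myeloid barcodes of matched depth.

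Fusion genes were split. Dcstamp, a fusion protein related to Ocstamp, was at 72.5 CPM against 9.65 (log2 ratio 2.91, 2.61 to 3.21) in 32 cells, while Cd9 had a log2 ratio of -0.07, Cd44 of -0.79 and Adam8 of -1.45. Under the gene limit of the study the Dcstamp ratio was 0.58. Among genes of attachment and the sealing zone 3 of 26 were lower (11.5%, against 18.5% of all genes) and 7 higher (26.9%, against 18.4%). Besides Itgb3, these included Cttn (3.34) and the podosome scaffold Sh3pxd2a (2.29). The kinase Src, needed for the ruffled border, was at 123 CPM against 26.0 (log2 ratio 2.25, 2.05 to 2.44) and was found in 81 cells.

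Most subunits for acid secretion were higher. Osteoclasts acidify the resorption pit with a vacuolar proton pump. Of 19 measured subunits 11 were higher (57.9%, against 18.4% of all genes) and 1 lower, with a median log2 ratio of 1.26. The summed level of all subunits was 12506 CPM in members and 4929 CPM in the other myeloid barcodes. Some paralogous subunits differed in their ratios. Atp6v0d2 had a log2 ratio of 6.01 while Atp6v0d1, at -0.59, lay within 2-fold (139 CPM against 209.6). Tcirg1, the a3 subunit of the ruffled border, had a log2 ratio of 1.55 (332 CPM against 114), while the a1 subunit Atp6v0a1 had -1.39.

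**Figure D2:**
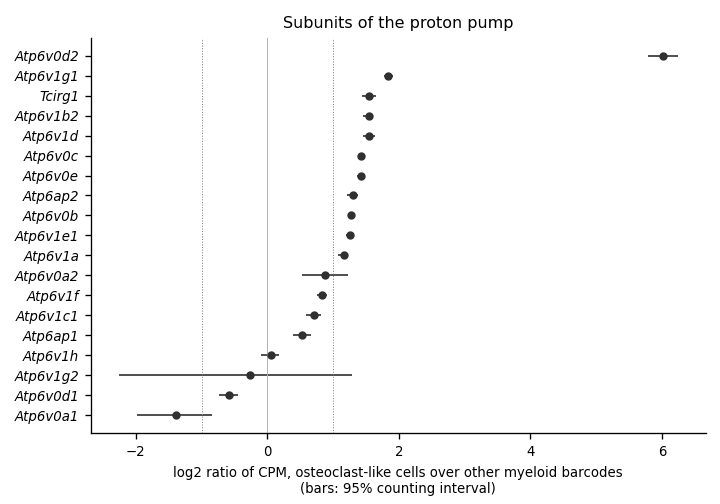
Log2 ratio of CPM (x axis), osteoclast-like cells over other myeloid barcodes, for the 19 measured subunits of the proton pump, with 95% counting intervals and dotted lines at 2-fold. Atp6v0d2 stands at 6.01, 10 further subunits lie between 1.16 and 1.84, and Atp6v0a1 lies at -1.39.

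Other genes of acid transport and vesicle traffic were higher in 7 of 15 cases (46.7%, against 18.4% of all genes). Car2, the carbonic anhydrase that supplies protons, was at 51.6 CPM against 0.619 (log2 ratio 6.38, 5.47 to 7.47). Slc9b2 had a log2 ratio of 5.83, the sugar phosphate exchanger Slc37a2 of 3.39, the anion exchanger Slc4a2 of 2.37 and the sorting nexin Snx10 of 1.99. Rufy4 (8.33) and Rab38 (6.84), which act in lysosome traffic, were nearly absent from the other myeloid barcodes of this library, with 4 UMIs each. Clcn7 and Ostm1, the chloride channel of the pit and its partner, had ratios of 0.84 and 0.97, below the 2-fold limit.

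Genes of energy metabolism were higher in 18 of 26 cases (69.2%, against 18.4% of all genes), with a median log2 ratio of 1.68. Ckb, the brain-type creatine kinase that buffers ATP, was at 791 CPM against 70.9 (log2 ratio 3.48, 3.38 to 3.58). Tfrc, which takes up iron, had a ratio of 3.36, and Idh3a, an enzyme of the citrate cycle, had 2.74. Of 78 nuclear subunits of the respiratory chain, a list formed by symbol after values had been seen, 66 were higher (84.6%) and 0 lower. The 13 mitochondrially encoded subunits had a median of 0.69, and 5 of them were higher (38.5%). The glucose transporter Slc2a1 was lower (-1.53), and Ldha (0.21) and Pkm (-0.33) lay within 2-fold.

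Matrix and lysosomal enzymes other than Acp5, Ctsk and Mmp9 showed no common direction. The membrane protease Mmp14 had a log2 ratio of 1.30, whereas macrophage elastase Mmp12 had -4.92 and the cathepsins Ctsc and Ctsh had -2.34 and -2.13. Ctsd and Ctsb lay within 2-fold at 0.04 and -0.65.

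**Figure D3:**
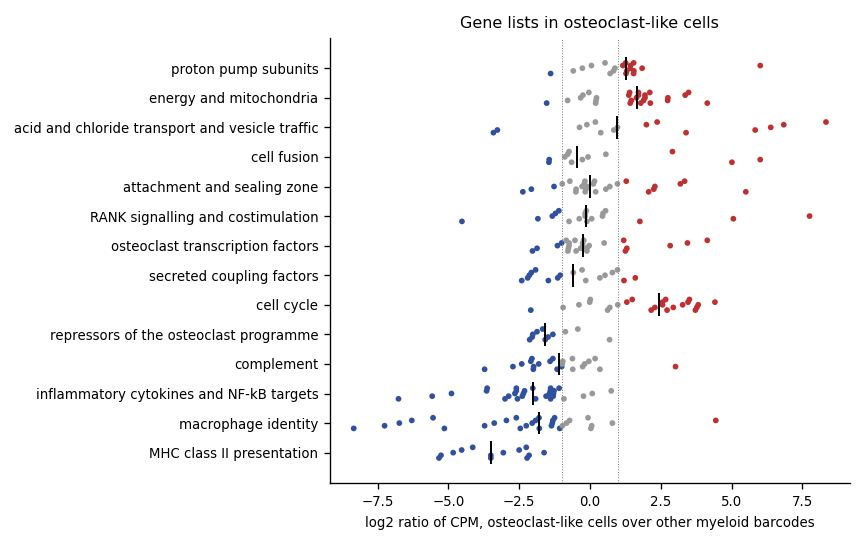
Log2 ratio of CPM (x axis), osteoclast-like cells over other myeloid barcodes, for each measured gene of 14 lists (rows), with a black bar at the median of the list and dotted lines at 2-fold. Red genes are higher and blue genes lower by 2-fold or more; the median runs from 2.43 in cell cycle through 1.26 in proton pump subunits to -3.50 in MHC class II presentation.

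Macrophage identity genes were lower in 21 of 29 cases, against 18.5% of all genes, and 1 was higher. These counts include Csf1r, Cd68 and Adgre1, which chose the contrast and are not read as a result. Lyz2, lysozyme, was at 6435 CPM against 22365 (log2 ratio -1.80), and Cd14, the endotoxin coreceptor, at 372 CPM against 2868 (-2.95). The monocyte genes Ly6c2 (-8.34) and Ccr2 (-5.54) and the mannose receptor Mrc1 (-7.25) were nearly absent, with 1, 5 and 2 UMIs. The gene that was higher, the scavenger receptor Marco, came from 2 cells with 266 and 25 UMIs. The Lyz2 ratio was -5.57 without the 32 members that had at least 3 UMIs of T, B or NK, neutrophil, endothelial, mast or erythroid markers.

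Antigen presentation was lower throughout. All 13 measured genes of MHC class II presentation were 2-fold or more lower, against 18.5% of all genes, with a median log2 ratio of -3.50. H2-Aa was at 46.9 CPM against 1892 (log2 ratio -5.33, -5.57 to -5.11) and Cd74, the invariant chain, at 274 CPM against 4834 (-4.14). H2-Aa was found in 20.5% of members and 42.5% of other myeloid barcodes. Per cell the list had a median of 86.4 CPM in members and 626 in other myeloid barcodes, against group levels of 500.1 and 11205. The group levels thus rest on part of the cells. The costimulatory ligand Cd86 had a ratio of -4.53. Inflammatory cytokines and NF-kB targets were lower in 25 of 29 cases (86.2%, against 18.5% of all genes) and higher in 0. Il1b was at 51.9 CPM against 1544 (-4.89) and the neutrophil chemokine Cxcl2 at 1568 CPM against 9809.7 (-2.65). Of these UMIs, 172 of 176 for Il1b and 4945 of 5318 for Cxcl2 came from the 21 lowest cells in the order of markers given below, and the ratios without them were -9.97 and -6.10. Ccl9, a chemokine that osteoclasts make, lay within 2-fold at 471 CPM against 281 (0.75).

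Complement genes, the subject of the study, were 2-fold or more lower in 11 of 22 measured cases (50%, against 18.5% of all genes). They were higher in 1. C5ar1, the receptor of the anaphylatoxin C5a, was at 22.4 CPM (17.7 to 28.0) against 147 (141 to 153), a log2 ratio of -2.72, and was found in 17 of 83 members. C3ar1 was at 35.4 CPM against 124 (-1.81), C3 at 47.5 against 252 (-2.41) and the C1q chain C1qa at 118 against 469 (-1.99). Of the 400 C1qa UMIs in members, 396 came from 7 cells among the 21 lowest in the order of markers given below, and without these 21 cells the ratio was -8.25 for C1qa, -7.0 for C5ar1 and -4.19 for C3. Properdin (Cfp) had a ratio of -2.09. Cd59a, which blocks the membrane attack complex, was the higher gene, at 32.1 CPM against 3.96 (log2 ratio 3.02, 2.56 to 3.49), and was found in 40 members.

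Among single genes outside the lists, Mt3, a metallothionein that binds zinc and copper, had the highest ratio of all. It had 2762 UMIs in 26 members and 14 UMIs in the 1025 other myeloid barcodes, 814 CPM against 0.866 (log2 ratio 9.88, 9.13 to 10.75). Kbtbd11 (6.97), Serpind1 (6.42), the mitochondrial kinase-like protein Coq8a (5.63), Cyp2s1 (5.33) and Slc45a3 (5.28) were also among the 15 highest. At the other end of this ranking were Plbd1 (-7.87), the leukotriene receptor Ltb4r1 (-7.41) and the formyl peptide receptor Fpr1 (-5.56). They had 2, 1 and 3 UMIs in all members together.

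The 83 cells were not alike. They were ranked by the summed CPM of Atp6v0d2, Ocstamp, Mmp9, Nfatc1 and Itgb3, which ran from 0 to 21261, and split at the median into 42 lower and 41 upper cells. These 5 genes made the split and are not read as its result, and all values along the order are descriptions of the same cells. Acp5, which chose the cells only by a minimum, was at 1045 CPM (996 to 1095) in the lower and 8218 CPM (8084 to 8354) in the upper cells. Ckb was at 109 and 1446 CPM, Mt3 at 37.9 and 1560.4 CPM and Oscar at 0 and 78.6 CPM. Lyz2 went the other way, from 12723 CPM in the lower to 394 CPM in the upper cells.

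Splitting the order further into 4 groups of 20 or 21 cells, chosen after the data had been seen, showed where each gene was found. Ppargc1b was found in 2 of 21 cells of the lowest group, then in 15, 19 and 20 cells of the following groups. Jdp2 was at 435, 992, 1409 and 1170.3 CPM. Most cells with Dcstamp stood further up the order: it was found in 0, 3, 10 and 19 cells. Oscar was found in 0, 0, 5 and 11 cells, Mt3 in 0, 1, 9 and 16, and Siglec15 in 0, 1, 1 and 8. At these counts a gene that was not found and a gene at a lower level cannot be told apart.

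The summed levels of the proton pump and the respiratory chain were highest in the highest group, while glycolytic genes were mixed. The summed level of proton pump subunits, which includes Atp6v0d2, was 5489.9, 8245, 14799 and 20319.9 CPM from the lowest to the highest group. Tcirg1 was at 116, 223, 355 and 590.4 CPM. The nuclear respiratory chain subunits summed to 28019, 40465, 53456 and 64342 CPM. Ldha was at 1017, 1004, 839 and 656 CPM, Pkm at 996, 969, 615 and 501 and Slc2a1 at 93.0, 50.2, 32.3 and 11.5. Hk1 (34.4, 33.1, 51.7 and 91.1 CPM) and Ldhb (15.3, 29.6, 45.2 and 187) were instead highest in the highest group. Hk2 was at 238, 156, 274 and 196 CPM. The median share of mitochondrial UMIs was 2.23%, 2.09%, 2.81% and 5.04%, and the highest cell had 12.7%. The part of this share in the values of the highest group was not tested.

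Several macrophage genes had the opposite order, but not all. Adgre1 (F4/80) was found in 12, 3, 0 and 0 cells, and Lyz2 was at 23943, 2687, 219.5 and 536 CPM. C5ar1 was found in 15, 2, 0 and 0 cells, with 93.0 and 3.42 CPM in the first pair of groups, and C3 was at 159, 26.2, 11.6 and 4.19 CPM. In the 41 upper cells C5ar1 had 0 UMIs, with an upper limit of 2.13 CPM, so all 76 C5ar1 UMIs counted in members came from the 42 lower cells. Genes shared by macrophages and osteoclasts did not follow: Csf1r was at 319, 367, 634 and 695 CPM and Cd68 at 514, 326, 553 and 877. Trem2 was at 544, 285, 306 and 50.2 CPM, lowest in the highest group.

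**Figure D4:**
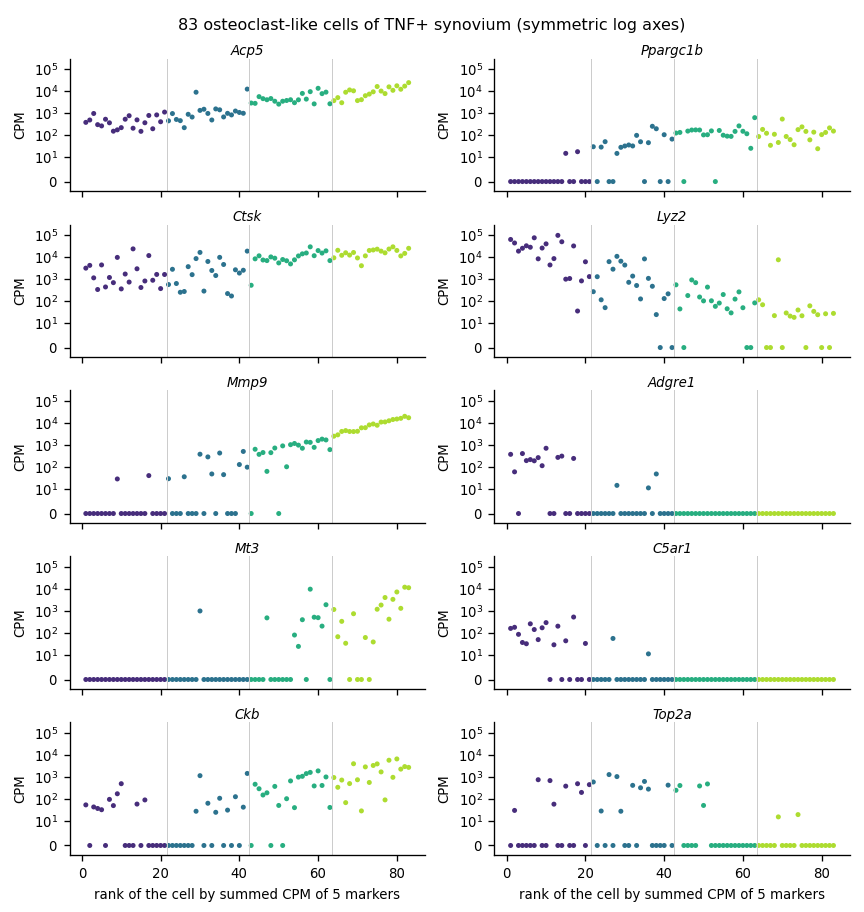
CPM per cell (y axes, symmetric log) of 10 genes in the 83 osteoclast-like cells, placed by rank of the summed CPM of 5 markers (x axis), with colours and grey lines for the 4 groups of 20 or 21 cells. Mmp9, Mt3 and Ckb are highest at the right, Lyz2, Adgre1 and C5ar1 at the left, and Top2a is found in 8, 10, 5 and 2 cells of the groups from left to right.

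The lowest group was chosen for low levels of 5 markers, so these are not read here. Of genes that did not rank the cells, Oscar, Dcstamp and Mt3 were found in 0 of its 21 cells, and its Lyz2 level of 23943 CPM was close to the 22365 CPM of the other myeloid barcodes. It is described here by its rule, as myeloid cells with Acp5 and Ctsk. Without this group 2400 of 12065 genes were higher and 2565 lower, and 32 genes of the osteoclast lists were higher. Genes that ranked the cells, among them Atp6v0d2, Nfatc1 and Itgb3, belong to these lists, so the 32 are not read as a result.

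Dividing cells were part of the order. With 19 genes of DNA replication and mitosis summed, 24 of 83 members (28.9%, 19.5 to 39.9) had at least 10 UMIs, against 2.63% of other myeloid barcodes. Those differ in depth, however, and 14 of the 51 other myeloid barcodes of matched depth (27.5%, 15.9 to 41.7) also had at least 10. The higher levels of 16 of 24 cell cycle genes (66.7%, against 18.4% of all genes) are therefore given without a claim for the members. The log2 ratio of Top2a, a topoisomerase of dividing cells, was 2.94 against all other myeloid barcodes and 0.58 against those of matched depth. Within the members, cells with at least 10 such UMIs numbered 8, 10, 6 and 0 from the lowest to the highest group. With the limit at 10 UMIs, 11 members lay between 5 and 19.

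The 24 members with these transcripts and the other 59 differed in some osteoclast genes and were close in others. Nfatc1 was at 507 CPM in the 24 and 569.6 in the 59, and Jdp2 at 961 and 1033. Mmp9 was at 226 CPM in the 24 and 4299.8 CPM in the 59, a log2 ratio of -4.25, and Oscar had 2 and 134 UMIs. Ckb was at 98.6 and 1149.6 CPM. Rab38 had 0 UMIs in the 24 cells and 96 in the 59. Mmp9 was nevertheless found in 13 of the 24 cells, so the groups overlapped.

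Barcodes with only 1 of the rule genes had lower levels of most other markers than the members as a group. Those with Acp5 alone lay between the members and the barcodes low in both for Atp6v0d2, Ocstamp and Nfatc1. For Mmp9 and Itgb3 they did not. The 50 other myeloid barcodes with at least 5 UMIs of Ctsk but under 5 of Acp5 were at 5.33 CPM of Mmp9, 10.7 of Atp6v0d2 and 55.1 of Nfatc1. The 30 with at least 5 UMIs of Acp5 but under 5 of Ctsk were at 4.34, 46.3 and 207 CPM. The 945 with under 5 of both were at 7.04, 9.41 and 42.5 CPM. Jdp2 was at 608 CPM and Tnfrsf11a at 103 CPM in the 30 barcodes with Acp5 alone, against 122 and 36.0 CPM in the 945. The lowest 21 members had 435 CPM of Jdp2 and 48.4 of Tnfrsf11a, so these 30 barcodes were above them in both genes. Nfatc1 and Atp6v0d2 ranked those members and are not compared with them. Median depth was 22457, 20852 and 14507 UMIs in these sets.

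The same rule also found barcodes in lung. It was passed by 46 barcodes of the TNF- lung (0.551% of kept) and 624 of the TNF+ lung (5.63%). These had genes known from alveolar macrophages, which were absent or nearly so in the synovial members. Chil3 was at 12264 and 11759 CPM in the TNF- and TNF+ lung barcodes against 6.78 in the members, Mrc1 at 1253 and 1002 against 0.590, and Siglecf at 148 and 105 against 0. Atp6v0d2 was as high in lung as in the members, at 853 and 999 CPM against 714, and Rufy4 was at 50.4 and 49.9 against 79.6.

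Osteoclast genes differed in whether the lung barcodes shared them. Nfatc1 was found in 89.1% of TNF- and 83.2% of TNF+ lung barcodes, at 97.2 and 58.2 CPM against 548 in the members. Ppargc1b was at 48.6 and 55.7 CPM against 75.5, Tnfrsf11a at 51.5 and 36.0 against 130.0, and Ctsk at 967 and 772 against 9544. Others were nearly absent. Ocstamp had 0 UMIs in the 46 TNF- lung barcodes, with an upper limit of 2.16 CPM, and was at 0.384 CPM in the TNF+ lung barcodes against 112 in the members. Mmp9 was at 5.27 and 6.30 CPM against 2910.4, Itgb3 at 0 and 1.58 against 69.9, Slc9b2 at 0 and 0.154 against 395 and Oscar at 0 and 0.192 against 40.1. Acp5 itself was at 186 and 376 CPM in the lung against 4703 in the members. These values come from different tissues and libraries and are set side by side without a test. C5ar1, low in the members, was at 118 and 116 CPM in the lung barcodes.

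**Figure D5:**
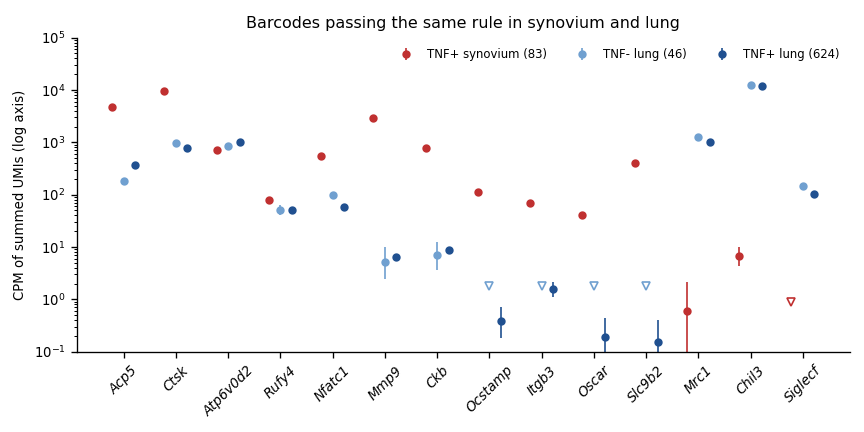
CPM of summed UMIs (y axis, log) for 14 genes (x axis) in barcodes passing the same rule in the TNF+ synovium (83), TNF- lung (46) and TNF+ lung (624), with exact Poisson 95% intervals and open triangles at the floor of 3 UMIs where none was counted. Atp6v0d2 and Rufy4 are of like level in all 3, Ocstamp, Itgb3, Oscar and Slc9b2 stand out in synovium, and Mrc1, Chil3 and Siglecf in lung.

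Markers of other cell types were low in the members as a group. The 10 mast cell and erythroid markers summed to 1 UMI, with 9 of them at 0, and the 14 T, B and NK cell markers summed to 105 UMIs, with 8 at 0. Fibroblast markers ran from 0 to 6 UMIs per cell. Single cells stood out: 1 cell had 159 UMIs of the pericyte gene Rgs5 and 20 of the endothelial gene Cdh5, and 1 cell had 165 UMIs of the epithelial keratin Krt18. Without the 3 members that had at least 20 UMIs of any such list, 2182 of 12111 genes were higher and 2480 lower. Of the osteoclast lists, 28 genes were then higher. At least 3 UMIs of mural and muscle markers were found in 31.3% of members and 7.61% of the other myeloid barcodes, and of epithelial and Schwann cell markers in 33.7% and 9.85%, beside the gap in depth given above. The part of these transcripts in the results was not tested. Barcodes shared between libraries were few, with 5 to 21 per pair, and 1 member barcode also occurred in the TNF- lung.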

How the data were processed

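Single-cell suspensions of lung and synovium gave 4 libraries, 1 per tissue and genotype. The deposited matrices hold raw UMI counts per gene and barcode, which the authors made with Cell Ranger 7.0.1 on mm10, as named in the submitters' processing notes. The study kept barcodes with 200 to 5000 genes. Here barcodes with at least 500 UMIs and at most 20% mitochondrial UMIs were kept, without an upper gene limit, giving 3498 to 11085 per library with median depths of 8109 to 13057 UMIs.

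Counts were summed over members and over the other myeloid barcodes and given as CPM with exact Poisson intervals. Ratios have exact conditional binomial intervals, shares exact Clopper-Pearson intervals, all at 95%. With 1 library per group no test was run. Genes needed 20 UMIs over both groups, and a ratio against 0 UMIs is a bound against 3 UMIs over that group. The computation was tested on simulated data.

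The members and gene lists were chosen with earlier results of these data known. Named genes were the 7 markers, up to 4 genes per list with the largest ratio, textbook members near 0, and the 15 highest and 15 lowest genes found in at least 25% of cells. Further genes within the lists, among them Cd9, Adam8, Clcn7, Ldha, Ctsd and Ccl9, the Oscar promoter, the 4-group split, the limit of 10 cell cycle UMIs and the symbol-based respiratory chain list were chosen after values were seen. Doublets were kept, and Scrublet (scanpy 1.11.5) served as an alternative. Python 3.11.15, numpy 2.4.6, scipy 1.17.1 and pandas 2.3.3 were used. Some genes that the naming rule selects are not reported here.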

Additional observations from a re-analysis of the deposited data

How the results depend on the processing

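The TNF+ synovium held 28 members under the gene limits of the study and 73 to 109 under 6 other settings, and the TNF- synovium held 0 under all 7. Lung barcodes passing the rule, 670 in both lungs, numbered 394 with 10 UMIs of each gene and 30 under the limits of the study. Genes higher in members, 2239, numbered 992 against other myeloid barcodes of matched depth, 3383 with a minimum of 5 UMIs per gene, 1420 with a minimum of 100 and 521 at a 4-fold limit. Genes lower, 2250, numbered 1251, 1397 and 885 at matched depth, the minimum of 100 UMIs and 4-fold. The higher share of all calls was 49.9%, and 43.9% after centring on the median. Higher proton pump subunits, 11, numbered 7 under the limits of the study and 1 at 4-fold, and lower macrophage identity genes, 21, numbered 13 at 4-fold. Higher genes of the osteoclast lists, 28, stayed between 20 and 32. The cause of these shifts was not tested beyond what fewer cells, fewer genes or a stricter limit bring by construction.

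Of 70 named genes 0 reversed in 13 settings, and 65 passed 2-fold in all. Exceptions were Dcstamp (0.58) and Lyz2 (-1.0) under the limits of the study, and Bcl6 (-0.78), Top2a (0.58) and Cdk1 (0.97) at matched depth. Sizes were less stable than directions: 590 ratios under these settings lay within the main counting interval and 320 outside it. The lowest value was 2.82 for Oscar and 1.94 for Siglec15, beside main bounds of 7.75 and 5.06. Leaving out members with 20 UMIs of other cells, or the lowest 21 members, was chosen after seeing the data. No paired analysis was possible because each group is 1 library. Depth limits genes under 20 UMIs, and intervals do not cover the spread between mice.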
